A study of Mus musculus with 7 samples.

Results

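Single-cell RNA sequencing of the pancreas of mice that carry a doxycycline-inducible cassette of the Yamanaka factors (i4F) gave, in the authors' own annotation, 3 macrophage clusters, of which the cluster Macrophages_3 is described here. Its members were taken as every i4F cell that the deposited annotation places in Macrophages_3, which gave 584 of the 25643 i4F cells and of the 58473 cells of all 7 mice. The cells came from each of the 3 i4F mice, with 215 in i4F 1, 87 in i4F 2 and 282 in i4F 3. Markers given for the cluster were the major histocompatibility complex (MHC) class II genes H2-Eb1 and Cd74, the lectin Mgl2 and the chemokine Ccl22.

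All mice were C57BL/6 and 2 months old. The 3 i4F mice (genotype i4F-B, with the reverse tetracycline transactivator rtTA and the inducible Oct4, Sox2, Klf4 and c-Myc cassette) and the 2 wild-type (WT) mice both drank doxycycline at 1 mg/ml for 7 days, so that the drug was shared and the transgenes were not. A further group of 2 wild-type mice, labelled cerulein, received caerulein, a secretagogue that causes mild acute pancreatitis, at 100 μg/kg in 7 injections a day on 2 days. The whole pancreas was dissociated without a sort, and each library is 1 mouse. Per the study's methods the factor cassette sits in Pparg and rtTA in Rosa26, and the transgene is not limited to a cell type, so the cells described carry it themselves.

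Dendritic cells take up antigen in tissue and present it to T cells on MHC class II molecules. They arise under the growth factor receptor Flt3 and fall into conventional type 1 (cDC1) and type 2 (cDC2) cells. On maturation they switch on the chemokine receptor Ccr7, which guides them to lymph nodes, together with the cytoskeletal protein fascin and checkpoint ligands. Tissue macrophages can also carry MHC class II, and are told apart by complement C1q, the receptor Csf1r and F4/80 (Adgre1).

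Most class II genes of the cluster lie in the MHC region of chromosome 17. Their promoters are known for a conserved module that ends in a Y box, whose core is ATTGG, and that recruits the transactivator Ciita. Shown here are 100 bases of the RefSeq sequence (build GRCm38.p6) around this core for the 5 class II genes of the cluster with an entry, written 5′ to 3′ on the gene's strand with ATTGG in capitals.
H2-Aa, chr17:34287842-34287941, minus strand: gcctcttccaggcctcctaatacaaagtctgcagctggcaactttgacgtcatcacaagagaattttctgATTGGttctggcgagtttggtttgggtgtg
H2-Eb1, chr17:34305738-34305837, plus strand: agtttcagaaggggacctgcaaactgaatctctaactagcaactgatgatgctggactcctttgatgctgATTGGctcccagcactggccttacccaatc
H2-DMb1, chr17:34153060-34153159, plus strand: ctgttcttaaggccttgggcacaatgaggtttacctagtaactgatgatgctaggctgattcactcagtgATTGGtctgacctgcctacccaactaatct
H2-DMb2, chr17:34145089-34145188, plus strand: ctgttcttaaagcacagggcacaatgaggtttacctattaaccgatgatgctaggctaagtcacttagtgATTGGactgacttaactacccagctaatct
H2-Oa, chr17:34092266-34092365, plus strand: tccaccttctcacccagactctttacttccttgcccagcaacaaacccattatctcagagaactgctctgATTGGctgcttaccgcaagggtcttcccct
The capitals begin 48 bases before the annotated start in H2-Aa, 59 in H2-Eb1, 61 in H2-DMb1, 90 in H2-DMb2 and 43 in H2-Oa, counted from the start that the promoter table uses. For H2-DMb2 the RefSeq gene record begins further upstream, at position 34143229, so that its stretch lies inside the gene as recorded. H2-DMb1 and H2-DMb2 lie next to each other and shared 86 of the 100 bases shown when set side by side without gaps. ATTGG or its complement CCAAT occurred in the 250 bases before the start of 11120 of 32851 promoters (33.8%), so that the letters alone are common. Of 6 class II genes looked up 5 matched, the other being H2-Ab1.

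Cells per mouse ranged from 4327 to 9811 in the WT and i4F mice, and UMIs (unique molecular identifiers, 1 for each captured RNA molecule) per library from 15469018 to 64784216 over all 7. The cluster held 615490, 218590 and 1037296 UMIs in i4F 1, 2 and 3, with a median of 2491, 2235 and 3318 per cell. Libraries shared between 3 and 39 cell barcodes per pair, at most 0.411% of the smaller library, and at most 4 cells of the cluster were among those of any pair. The library labelled i4F 3 stood apart in composition. There Macrophages_3 made up 58.75% of the cells in macrophage clusters (282 of 480), against 6.15% in i4F 1 (215 of 3495) and 2.67% in i4F 2 (87 of 3257). Within the cluster, i4F 3 also differed most from its group: of 2452 genes with at least 50 CPM (counts of a gene scaled to the same total of UMIs, 1e6, in each sample), 42 were 2-fold above and 82 were 2-fold below both other mice, against 20 and 21 for i4F 1 and 9 and 12 for i4F 2. These folds were taken after 20 CPM had been added to each level.

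rtTA was read first, as a check of the labels. In the cluster it gave 37.4, 36.6 and 28.0 CPM in i4F 1, 2 and 3 (23, 8 and 29 UMIs), and in the WT cluster named Macrophages_1 3.56 and 0 CPM (1 and 0 UMIs). The 3 i4F mice stood above both WT mice, as did all their other cells (42.5, 48.4 and 48.0 CPM against 0.907 and 0.153). Pou5f1, which encodes Oct4, was caught 1, 3 and 2 times in the cluster and Sox2 not at all. UMIs of Klf4 and Myc from the cassette cannot be told apart from those of the endogenous genes.

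To ask what sets the cluster apart in the reprogramming pancreas, its UMIs were summed per mouse and set beside those of the large i4F cluster Macrophages_1 (2921, 2735 and 183 cells) of the same mice. The clusters were made from these genes, so the differences are a description and carry no test. Antigen presentation led the cluster. H2-Eb1, the beta chain of the I-E class II molecule, reached 11311, 6611 and 9244 CPM in i4F 1, 2 and 3, and 27.8, 30.1 and 296 CPM in Macrophages_1. Cd74, the invariant chain that guards the class II groove, reached 33559, 21314 and 30945 CPM against 257, 228 and 2176 CPM. Each mouse showed the gap, and it was narrowest in i4F 3, where Macrophages_1 was small and itself held more class II RNA. On the log2(CPM + 20) scale H2-Eb1 was 6.60 ± 1.56 (SD, n = 3 mice) higher in Macrophages_3.

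Of 2794 genes with a mean of at least 50 CPM in either cluster, 62 (2.22%) were at least 2-fold higher in the cluster in every i4F mouse and 67 (2.4%) at least 2-fold lower. The class II list gave 8 of its 9 described members among the higher genes, with a median log2 difference of 2.85, against -0.04 over all 2794. The ninth, the protease Ctss, lay at 2104, 1990 and 1402 CPM against 2753, 2202 and 1834 CPM. Class I genes and their loading factors had none of 8, with a median of 0.53.

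**Figure D1:**
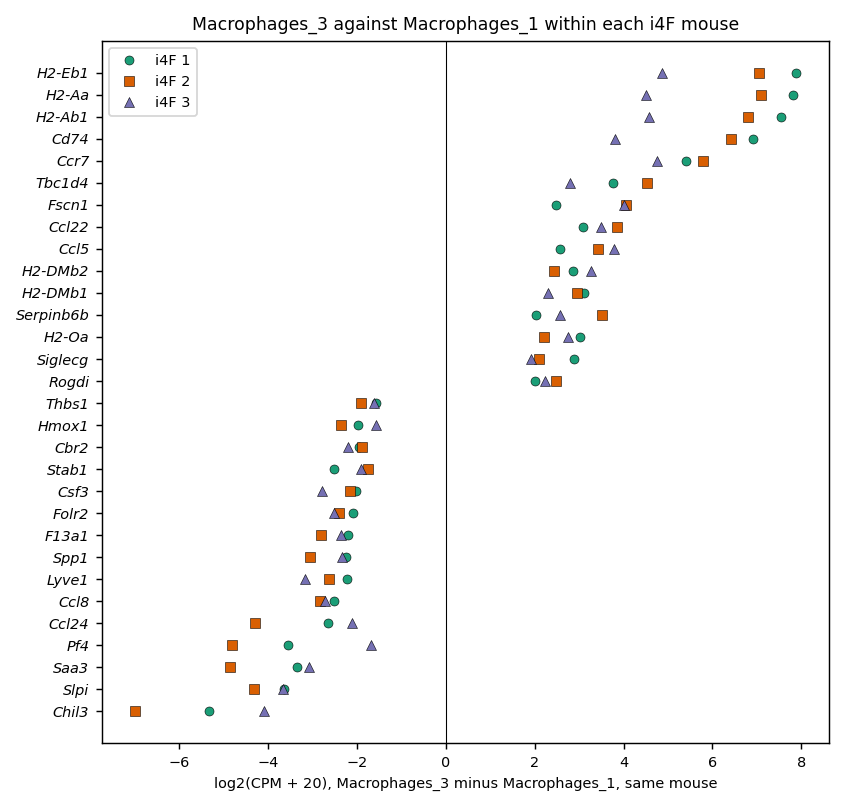
Log2(CPM + 20) in i4F Macrophages_3 minus that in i4F Macrophages_1 of the same mouse, for the 15 genes per direction chosen by the smallest of their 3 within-mouse differences (1 symbol per mouse). Class II genes, Ccr7, Fscn1 and Ccl22 lie to the right of 0 in each mouse, and Chil3, Lyve1, Folr2 and Pf4 to the left.

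Genes of mature dendritic cells were also high in the cluster. Ccr7 lay at 944, 1226 and 852 CPM in the cluster and at 2.63, 2.44 and 12.3 CPM in Macrophages_1, a mean log2 difference of 5.32 ± 0.53 (SD, n = 3 mice). Fscn1, which encodes fascin, lay at 119, 371 and 368 CPM against 4.85, 3.39 and 4.11 CPM. Ccl22, a ligand of the T cell receptor Ccr4, lay at 158, 270 and 276 CPM against 1.01, 0 and 6.17 CPM. None of these 3 genes overlapped between the clusters. Of 23 described members of the mature list, the marker Ccl22 included, 8 were at least 2-fold higher in every mouse, against 2.22% of all described genes. The list had a median of 1.53. Of 5 described members of a list of conventional dendritic core genes 3 were 2-fold higher, beside the same 2.22%, with a median of 1.36.

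On the other side stood macrophage genes. Chil3, a chitinase-like protein of monocytes and alternatively activated macrophages, lay at 22.7, 64.0 and 8.68 CPM against 1703, 10725 and 471 CPM. Lyve1, the hyaluronan receptor of resident macrophages, lay at 32.5, 9.15 and 21.2 CPM against 225, 160 and 352 CPM. Both were lower in Macrophages_3 in each mouse. Among 16 described members of the macrophage list 7 were at least 2-fold lower in each mouse, against 2.4% of all described genes. None was 2-fold higher in each mouse, and the median was -1.53. Of the monocyte list 2 of 10 were 2-fold lower in each mouse, beside the same 2.4%, with a median of -0.52.

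The markers given for the cluster were then read beside other dendritic and macrophage genes. They were chosen with earlier results of these data known, so their levels do not test the label dendritic-like. H2-Eb1, Cd74 and Ccl22 were as described above, and Mgl2 lay at 50.4, 45.7 and 385 CPM against 1.01, 1.63 and 121 CPM in Macrophages_1. Flt3, the defining receptor, was found at 48.7, 82.3 and 28.0 CPM (30, 18 and 29 UMIs). C1qa, a chain of complement C1q and a macrophage marker, was nevertheless found at 1475, 1020 and 3280 CPM. The marker of cDC1 Clec9a was at 3.25, 0 and 29.9 CPM and Cd209a of cDC2 at 24.4, 9.15 and 78.1 CPM. The dendritic genes were thus accompanied by macrophage genes in each mouse, and the cells that carry each are separated further below. Langerhans cell genes were near 0, with a summed level from 0 to 14.5 CPM.

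**Figure D2:**
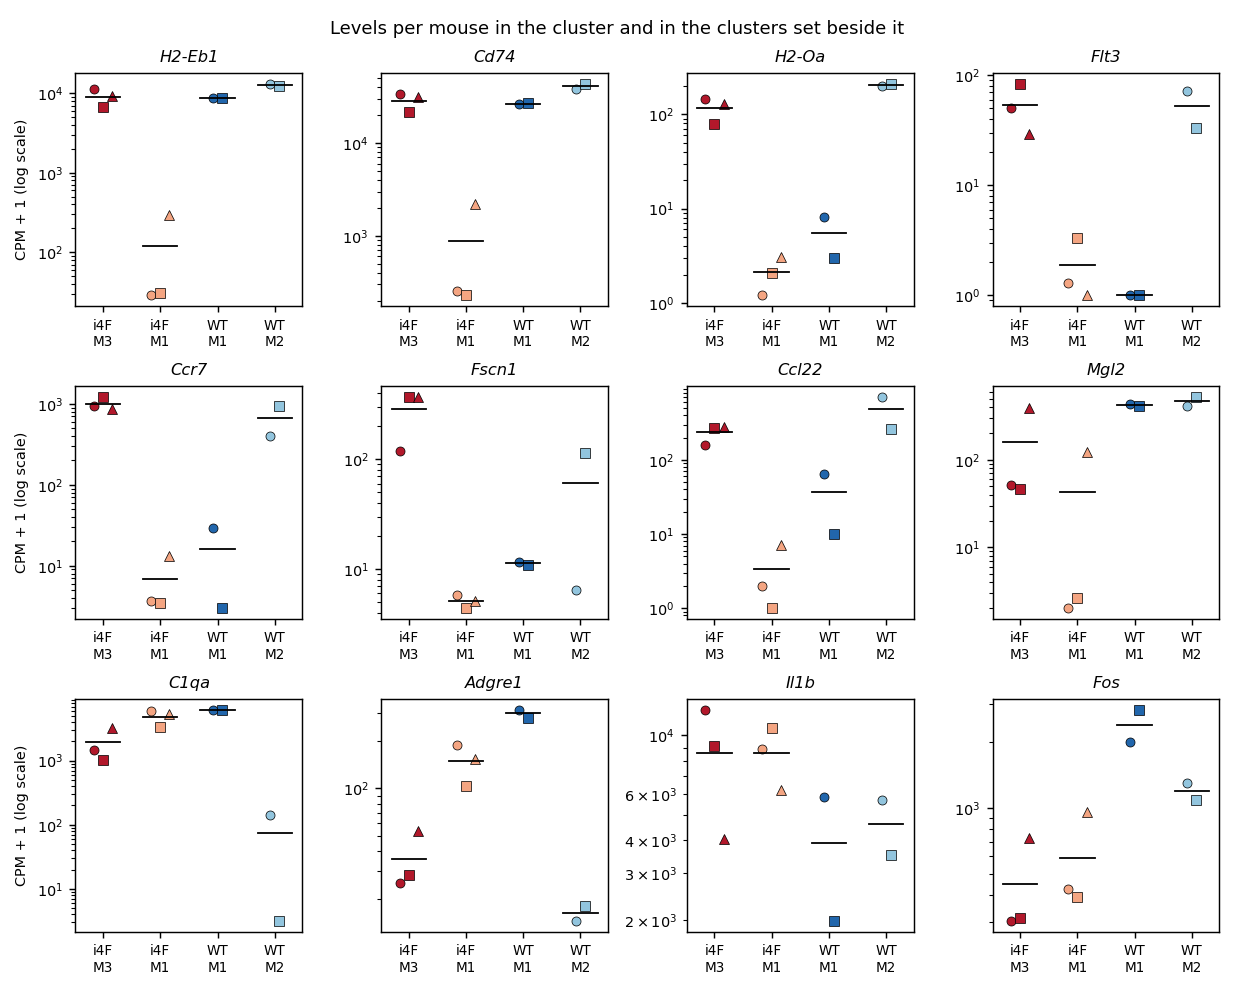
CPM + 1 on a log axis for 12 genes in i4F Macrophages_3 (i4F M3), i4F Macrophages_1 (i4F M1), WT Macrophages_1 (WT M1) and WT Macrophages_2 (WT M2). Circles, squares and triangles are mice 1, 2 and 3 and bars are group means. H2-Eb1 and Cd74 overlap between i4F M3 and WT M1, whereas Ccr7, H2-Oa and Flt3 are high in i4F M3 and WT M2, and C1qa is lowest in WT M2.

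The next question was how the cluster compares with cells of the wild-type pancreas. The reference was WT Macrophages_1 (45 cells in WT 1 and 418 in WT 2), which is also high in class II. WT and i4F cells were clustered separately by the authors from these same counts, so which cells entered each cluster and a change within cells cannot be told apart. Over 6067 genes tested with edgeR's quasi-likelihood test on the sums per mouse (3 i4F mice against 2 WT mice), 288 (4.75%) passed an adjusted p of 0.05. Of these, 151 (2.49% of the genes tested) were higher in the i4F cluster and 137 (2.26%) were lower. The groups overlapped for none of the 288, so that a lack of overlap adds nothing to a call. The median log2 fold change of all genes was -0.00. Genes with few UMIs were not tested, and a low gene could pass that filter on the UMIs of 1 group, so that the counts over lists below are descriptions. The same holds for the p-values of genes that were near 0 in WT and entered through i4F, among them H2-Oa, H2-DMb2, Dpp4, Ccr7, Fscn1, Il1r2 and Ifitm1. The number of calls depended on single mice: it was 0 without i4F 2 (1128 genes at an unadjusted p under 0.05, against 1347, or 22.2%, with all mice), 4 without WT 2, 81 without i4F 1 and 534 without i4F 3.

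The class II markers of the cluster, H2-Eb1 and Cd74, overlapped between the i4F cluster and WT Macrophages_1. H2-Eb1 lay at 8702 and 8628 CPM in WT 1 and WT 2, inside the i4F range, and its log2 fold change was 0.05 (SE 0.29), edgeR adjusted p = 0.951. Cd74 lay at 25989 and 26572 CPM in WT, again inside the i4F range, with a log2 fold change of 0.11 (SE 0.27). With so few mice this does not show that the levels are equal. H2-Ab1 lay at 11098, 6267 and 9112 CPM in the i4F mice and 7863 and 7069 CPM in WT, with overlap.

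Of the 11 class II genes tested 2 rose (against 2.49% of all genes) and none fell, with a median of 0.05, and 3 lay higher and 2 lower in i4F without overlap, near the 20.4% and 19.8% of all tested genes that did so. H2-Oa and H2-DMb2 encode parts of the loading machinery that B cells and dendritic cells use. H2-Oa, the alpha chain of the peptide-loading modulator H2-O, lay at 143, 77.8 and 127 CPM in the i4F mice and at 7.11 and 1.99 CPM in WT. Its log2 fold change was 5.07 (SE 0.61), edgeR adjusted p = 0.017, and all i4F mice stood far above both WT mice. H2-DMb2, a beta chain of the peptide exchanger H2-DM, lay at 136, 96.1 and 191 CPM against 0 and 5.97 CPM, a log2 fold change of 4.96 (SE 0.65), edgeR adjusted p = 0.017; both genes had few UMIs in WT and entered the test through i4F. H2-DMb2 resembles its neighbour H2-DMb1 in the promoter bases shown above. Their transcripts were not compared, so that the split of reads between them is uncertain. H2-DMb1 lay at 525, 407 and 556 CPM against 644 and 598 CPM. Ciita, the transactivator of class II promoters, lay at 21.1, 22.9 and 34.7 CPM against 67.6 and 82.5 CPM, with no overlap, but did not pass (edgeR adjusted p = 0.053). Both loading genes are also B cell genes, and in the lymphocyte clusters H2-Oa lay between 102 and 199 CPM. Summed B cell markers in the cluster lay at 65.0, 13.7 and 178 CPM against 164 and 182 CPM in WT, so no i4F mouse was above WT 2. Single markers differed from the sum: Cd79a, a chain of the B cell receptor complex, gave 11, 0 and 24 UMIs and Ly6d 7, 0 and 29 UMIs in i4F 1, 2 and 3, and none in WT. In i4F 2 both were at 0. With cells that carried B, T, NK or neutrophil genes left out, the log2 fold changes of H2-Oa and H2-DMb2 were 5.01 and 4.88, and the part of free B cell RNA was not tested. Pax5, a transcription factor that defines B cells, gave 1 UMI in i4F 3 and was otherwise at 0.

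Some genes of the dendritic lineage rose in the i4F cluster against WT Macrophages_1. Of 7 genes of the conventional dendritic core that were tested, 3 rose (against 2.49% of all genes) and none fell. The median was 3.03 (-0.54 against WT Macrophages_2, with 9 tested and none called). Flt3 was not detected in WT Macrophages_1 of either mouse, and with a floor of 3 UMIs over that group it was at least 22.7-fold higher in i4F. It entered the test through its UMIs in i4F alone. Dpp4 (CD26), a peptidase of conventional dendritic cells, lay at 43.9, 36.6 and 36.6 CPM against 0 and 3.98 CPM, a log2 fold change of 3.61 (SE 0.61), edgeR adjusted p = 0.022. Gpr132, a receptor for lysophospholipids, lay at 265, 256 and 170 CPM against 92.5 and 55.7 CPM, a log2 fold change of 1.65 (SE 0.36), edgeR adjusted p = 0.042. All i4F mice were above both WT mice for each of these 3 genes. Few subset genes passed. Of 13 cDC1 genes 7 were tested and none passed (median 0.29). Among those too low to test, Xcr1, Itgae, Gcsam and Snx22 were at 0 in WT. By the same floor their mean over the i4F mice was at least 8.48-, 5.81-, 1.65- and 1.20-fold higher. These means rest on 53, 38, 12 and 8 UMIs over the i4F group. They do not show that each i4F mouse was above WT. Of 8 tested cDC2 genes only lymphotoxin beta (Ltb) rose, at least 23.0-fold (35.7, 27.4 and 97.4 CPM against 0 in both WT mice).

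The mature or migratory dendritic list gave the most calls. Of 27 genes tested, 15 rose (against 2.49% of all genes) and none fell, and the median log2 fold change was 2.94, also with the 4 genes that were at 0 in WT set to their bound. Those 4 genes, and others near 0 in WT such as Ccr7 and Fscn1, entered the test through i4F. The list also holds Ccl22, a marker given for the cluster, which did not pass. The counts are therefore a description. The groups did not overlap for 23 of the 27, all higher in i4F, against the same 20.4% of all tested genes. Ccr7 lay at 28.4 and 1.99 CPM in WT, so that the lowest i4F mouse (852 CPM) stood far above both. Its log2 fold change was 6.53 (SE 0.85), edgeR adjusted p = 0.017. Fscn1 lay at 10.7 and 9.94 CPM in WT, a log2 fold change of 4.75 (SE 0.64), edgeR adjusted p = 0.018.

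Il4i1, a secreted amino acid oxidase that restrains T cells, lay at 153, 215 and 170 CPM in the i4F mice and at 0 and 0.994 CPM in WT. The i4F mice lay close together here. The gene passed, but with 1 UMI in WT it entered the test through i4F. Ccl17, a ligand of Ccr4, lay at 24.4, 503 and 527 CPM against 7.11 and 0 CPM, with i4F 1 far below its group. It also passed, on 2 UMIs in WT. Ccl22, a marker of the cluster, lay at 64.0 and 8.95 CPM in WT and did not pass, with a log2 fold change of 2.94 (SE 0.72) and an edgeR adjusted p of 0.055. This depended on the setting: the DESeq2 adjusted p was 0.004, and the edgeR adjusted p 0.022 with a replicate block. With both WT clusters as the reference the log2 fold change of Ccl22 was -0.13. Mgl2, the remaining marker, leaned lower in i4F: it lay at 434 and 407 CPM in WT, above the i4F mice (50.4, 45.7 and 385 CPM). It did not pass (log2 fold change -1.32, edgeR adjusted p = 0.369). Without i4F 3, the closest to WT, its log2 fold change was -3.17 (edgeR adjusted p = 0.005).

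Checkpoint ligands and survival signals belonged to the same group. Cd274, which encodes PD-L1, lay at 138, 128 and 81.9 CPM against 21.3 and 15.9 CPM, a log2 fold change of 2.65 (SE 0.40), edgeR adjusted p = 0.018. Pdcd1lg2 (PD-L2) lay at 32.5, 22.9 and 13.5 CPM and at 0 in WT, at least 9.85-fold higher. Traf1, an adaptor of TNF receptors, lay at 1254, 906 and 550 CPM against 117 and 93.5 CPM, a log2 fold change of 3.09 (SE 0.43), edgeR adjusted p = 0.018. Every i4F mouse was above both WT mice for these genes. By contrast Cd83, a maturation marker, lay at 1820, 1276 and 1237 CPM against 1910 and 1743 CPM, and Cd86, which costimulates T cells, at 419, 375 and 252 CPM against 277 and 206 CPM; both overlapped.

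**Figure D3:**
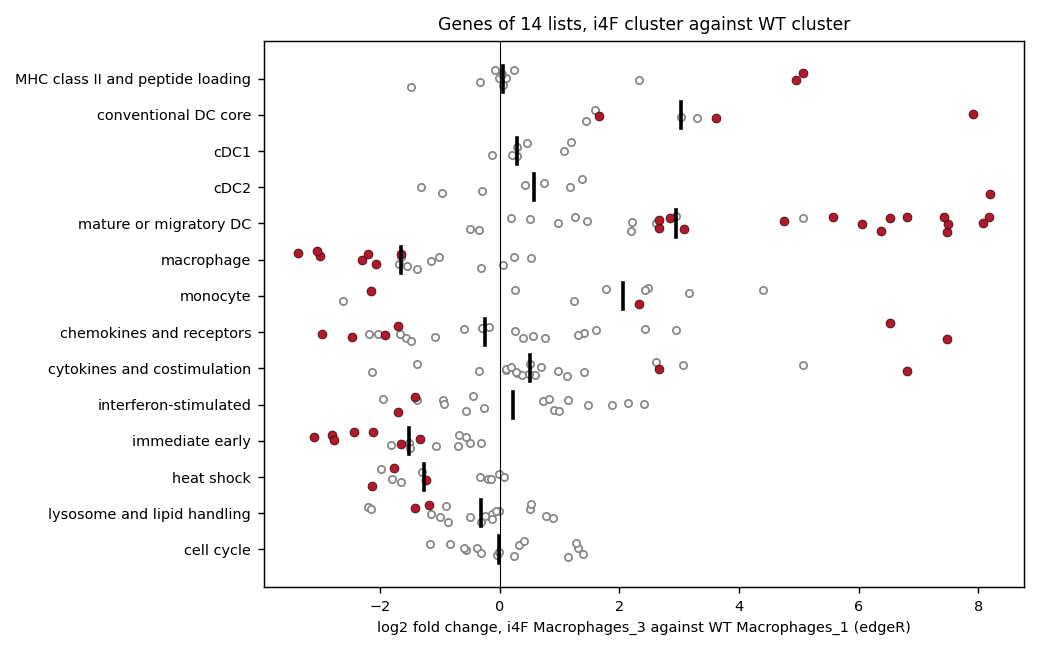
Log2 fold change of the tested genes of 14 lists, i4F Macrophages_3 against WT Macrophages_1, from edgeR. Filled points passed an adjusted p of 0.05, open points did not, and bars are medians; genes at 0 in WT are drawn at their fitted value. Filled points lie to the right for the mature dendritic list (15 of 27) and to the left for macrophage (7 of 17) and immediate early genes (7 of 16).

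Macrophage genes went the other way. Of 17 genes tested 7 fell (against 2.26% of all genes) and none rose. The median was -1.65 (2.19 against WT Macrophages_2, with 13 tested and none called). Adgre1, which encodes F4/80, lay at 24.4, 27.4 and 53.0 CPM against 313 and 278 CPM, a log2 fold change of -3.00 (SE 0.38), edgeR adjusted p = 0.017. Csf1r, the receptor for macrophage colony-stimulating factor, lay at 172, 165 and 225 CPM against 605 and 565 CPM (log2 fold change -1.65, SE 0.28, edgeR adjusted p = 0.022). Neither gene overlapped between the groups, and 13 of the 17 lay lower without overlap, as did 19.8% of all tested genes. Mertk, Mrc1, Cd163 and Lyve1 also fell, with log2 fold changes from -3.37 to -2.08. C1qa lay at 6284 and 6146 CPM in WT, above the highest i4F mouse (3280 CPM), but did not pass (log2 fold change -1.69, SE 0.46, edgeR adjusted p = 0.076).

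Outside the lists, the rule on the largest changes gave 15 genes per direction, from called genes whose groups do not overlap. Those higher included Gpr171, a G protein-coupled receptor, at 283, 183 and 65.6 CPM and at 0 in both WT mice (at least 76.0-fold). Il1r2, the decoy receptor for interleukin 1, lay at 1344, 1038 and 283 CPM against 17.8 and 3.98 CPM, a log2 fold change of 6.69 (SE 0.94), edgeR adjusted p = 0.018. Ifitm1, an interferon-induced membrane protein, lay at 4557, 2608 and 340 CPM against 3.56 and 42.8 CPM (log2 fold change 6.45, SE 1.26, edgeR adjusted p = 0.031). By that rule the 3 i4F mice were above both WT mice for each. Of the i4F mice, i4F 3 was lowest each time. Itgb7, an integrin chain of gut-homing cells (299, 160 and 113 CPM against 3.56 and 0.994 CPM), Klrd1 (CD94; 242, 160 and 41.5 against 0 and 1.99) and Siglecg, an inhibitory sialic acid receptor (136, 77.8 and 55.0 against 0 and 0.994), followed the same order.

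Among those lower were Folr2 and Selenop. Folr2, a folate receptor, lay at 32.5, 9.15 and 46.3 CPM against 331 and 432 CPM, a log2 fold change of -3.54 (SE 0.47), edgeR adjusted p = 0.017. Selenop, a selenium carrier, lay at 82.9, 68.6 and 308 CPM against 1479 and 1597 CPM (log2 fold change -3.28, SE 0.60, edgeR adjusted p = 0.025). By the same rule no i4F mouse reached either WT mouse.

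Chemokines moved both ways, with 2 of 24 tested genes higher (Ccl17 and Ccr7) and 4 lower, against 2.49% and 2.26% of all genes, and with 4 higher and 10 lower without overlap, against 20.4% and 19.8%. Ccl4, which recruits T and NK cells, lay at 3704, 3303 and 6933 CPM against 19360 and 15447 CPM, a log2 fold change of -1.91 (SE 0.36), edgeR adjusted p = 0.026. Cxcl10, an interferon-induced ligand of Cxcr3, lay at 697, 526 and 659 CPM against 2792 and 1299 CPM (log2 fold change -1.71, SE 0.35, edgeR adjusted p = 0.036). The chemokine Ccl24 and the fractalkine receptor Cx3cr1 were the other 2. Ccl5, another chemokine that attracts T cells, lay at 1002, 1135 and 4226 CPM against 338 and 442 CPM and did not pass (edgeR adjusted p = 0.078). Among 21 tested cytokine and costimulation genes Cd274 and Pdcd1lg2 alone rose, beside 2.49% of all genes. Il1b, the pro-inflammatory interleukin, overlapped between the groups at 12536, 9145 and 4044 CPM against 5854 and 1977 CPM.

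Immediate early genes respond within minutes to stimuli, and heat shock genes to misfolded proteins. Of 16 immediate early genes 7 fell (against 2.26% of all genes) and none rose (median -1.51), and of 12 heat shock genes 3 fell and none rose (median -1.27). Fos, the prototype of the immediate early genes, lay at 302, 311 and 726 CPM against 1995 and 2824 CPM, a log2 fold change of -2.44 (SE 0.43), edgeR adjusted p = 0.023. In all other cells of these mice Fos lay at 630, 629 and 1998 CPM in i4F and 5647 and 5231 CPM in WT, and in lymphocytes at 334, 487 and 477 against 1064 and 1119 CPM. Hsp90aa1, a chaperone that fell (513, 608 and 701 CPM against 1287 and 1533 CPM, edgeR adjusted p = 0.039), lay at 686, 708 and 754 CPM against 1243 and 1079 CPM in the other cells. The same direction was thus found outside the cluster, and the part of handling during dissociation was not tested.

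Other lists gave few calls, to be read against the 2.49% of all genes that were called higher and the 2.26% called lower. Monocyte genes had S100a4 higher and F13a1 lower among 10 tested, interferon-stimulated genes had Rsad2 and Cxcl10 lower among 18, pattern recognition receptors had the lectin Clec4n higher and Mrc1 lower among 13, and lysosome and lipid genes had Ctsb and Lipa lower among 19. None of 8 class I, 15 cell cycle, 3 plasmacytoid dendritic, 3 ductal and 8 stellate and endothelial genes passed. Of the summed levels of other cell types, T and NK cell genes moved with the groups (122, 110 and 102 CPM against 14.2 and 21.9 CPM). Most of this in i4F was Il7r, the interleukin 7 receptor (95.9, 105 and 71.3 CPM, log2 fold change 2.38, SE 0.37, edgeR adjusted p = 0.019). In WT it lay within the low sums above, so that it entered the test through i4F and its p-value is a description. Cd3d and Cd3e, parts of the T cell receptor complex, each gave 1, 0 and 3 UMIs. Neutrophil genes summed to 35.7, 18.3 and 24.1 CPM against 99.6 and 146 CPM, with Ngp, Camp and Ly6g at 0 throughout, and Csf3r and Mmp9 fell. The acinar list has 23 genes, of which only 6 were present in the deposited counts. Among these 6, all tested (median -0.56), Reg2, a secreted acinar protein, alone rose (556, 3024 and 5847 CPM against 103 and 20.9 CPM, edgeR adjusted p = 0.032). In all other cells it lay at 2910, 8625 and 34872 CPM against 2002 and 72.9 CPM, again with i4F 3 highest and WT 2 lowest, and the part of free RNA was not tested.

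The levels above are means over cells, so the cells were then read 1 by 1. Each was thinned to 1000 UMIs and counted when UMIs fell in 2 or more genes of a set (7 genes for mature dendritic cells, 7 for cDC1, 4 for cDC2 and 5 for macrophages). Cells below that depth were left out, which leaves 206 of 215, 78 of 87 and 277 of 282 in the cluster. Such a count marks a range of cells and not a type. Mature dendritic genes marked 15.5% (32 of 206), 23.1% (18 of 78) and 18.1% (50 of 277) of cells in i4F 1, 2 and 3, with exact (Clopper-Pearson) 95% intervals of 10.9% to 21.2%, 14.3% to 34.0% and 13.7% to 23.1% for counting error only. In WT Macrophages_1 they marked 0 of 44 and 0 of 365 cells, which allows up to 6.82% and 0.822% at 3 counts of the total (exact 95% upper limits of 8.04% and 1.01%). The 3 i4F mice stood above both WT mice, and the means were 18.9% ± 3.84 (SD, n = 3) and 0%. Exact two-sided permutation of the mice gave p = 0.2, adjusted over 4 sets 0.267, and 0.2 is the smallest value that 3 mice against 2 allow.

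Macrophage genes marked 31.6%, 28.2% and 46.2% of the cluster's cells, against 90.9% and 99.2% of WT Macrophages_1. No i4F mouse came near the WT mice (35.3% ± 9.58, n = 3, against 95.04% ± 5.85, n = 2; exact permutation p = 0.2). cDC1 genes marked 1.46%, 1.28% and 4.69% against 0 in both WT mice. The count of 0 of 44 cells in WT 1 allows up to 6.82%, above each i4F share. cDC2 genes marked 4.85%, 0% and 5.78% against 2.27% and 11.2%, with overlap. For cDC2 genes the 0 of 78 cells in i4F 2 allows up to 3.85%. In lymphocyte clusters, taken as background, mature dendritic genes marked 0%, 0% and 0.684% of i4F cells and 0.901% and 1.40% of WT cells, and macrophage genes at most 4.76%. With 1 gene enough, mature dendritic genes marked 27.0%, 37.3% and 30.9% of i4F lymphocytes and 22.5% and 17.7% of WT lymphocytes. The cluster then gave 36.9%, 32.1% and 29.2%, so that its distance from lymphocytes rests on the limit of 2 genes. For cDC1 genes the lymphocytes gave 0 of 189, 1 of 134 and 0 of 1462 cells in i4F 1, 2 and 3, which for i4F 1 allows up to 1.59%, so that the shares of i4F 1 and i4F 2 cannot be told from this background. Median depths before thinning were 688, 612 and 1130 UMIs in i4F lymphocytes. Without thinning, mature dendritic genes marked 22.3%, 26.4% and 25.9% of the cluster, and macrophage genes 36.3%, 33.3% and 47.9%.

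**Figure D4:**
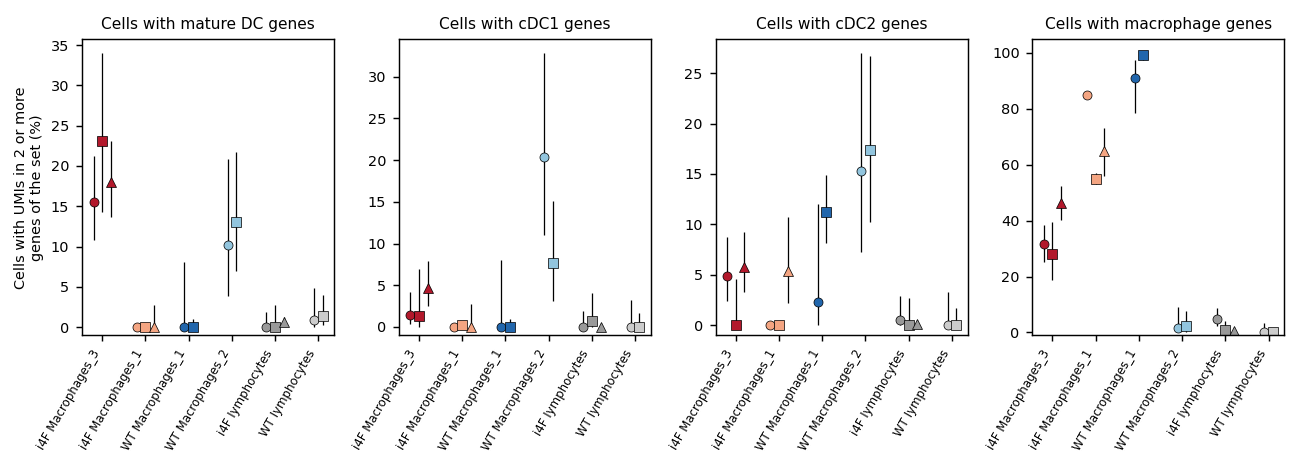
Share of cells with UMIs in 2 or more genes of each set after thinning to 1000 UMIs, per mouse (circle, square and triangle for mice 1, 2 and 3), with exact 95% binomial intervals that cover counting error only. i4F Macrophages_3 lies between WT Macrophages_1 and WT Macrophages_2 for macrophage genes, and mature dendritic genes mark from 15.5% to 23.1% of it.

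Mature dendritic and macrophage genes rarely met in the same cell. Without thinning, 144 of the 584 cells carried mature dendritic genes and 242 carried macrophage genes, and 10 carried both. Of the 100 cells with cDC1 or cDC2 genes, 26 also carried macrophage genes. No macrophage gene at all was found in 261 cells, exactly 1 in 81, near the limit of the count, and 153 cells met none of the 4 sets. The cluster was therefore mixed by its own genes, and the name dendritic-like describes some of its cells and not all.

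Levels in both kinds of cell are given side by side as a description, since the split uses these genes. In cells with none of the 5 macrophage genes, H2-Ab1 lay at 15598, 7923 and 10338 CPM in i4F 1, 2 and 3, and in cells with 2 or more at 6930, 4337 and 6769 CPM. The 12 class II and loading genes summed to 97729, 55189 and 69543 CPM against 47472, 33089 and 50271 CPM, and 10 of the 12 were higher in the first kind in each mouse. Ccr7 lay at 1695, 2724 and 1635 CPM in the first kind and at 204, 240 and 29.97 CPM in the second. H2-DMb2 lay at 280, 178 and 301 CPM against 35.7, 9.99 and 12.8 CPM. Flt3, Ccl22 and Il4i1 were likewise higher in cells without macrophage genes in each mouse.

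Mgl2, a marker of the cluster, did not follow this order: it lay at 44.2, 35.5 and 138 CPM in cells without macrophage genes and at 28.6, 69.96 and 524 CPM in cells with them. In i4F 2 and i4F 3 it was thus higher in the macrophage-gene cells. Il1b was higher in the macrophage-gene cells of each mouse (14496, 10563 and 5378 CPM against 10733, 6147 and 2432 CPM). Ccl5 was higher in the cells without macrophage genes, and most in i4F 3 (1504, 1966 and 8118 CPM against 700, 650 and 501 CPM).

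The mice also differed in which dendritic and myeloid genes the cluster held, which is described without a test. i4F 3 had the most RNA of cDC1 genes: the transcription factor Irf8, which cDC1 cells need, lay at 66.6, 119 and 428 CPM in i4F 1, 2 and 3, and the chemokine receptor Xcr1 at 11.4, 4.57 and 43.4 CPM. WT Macrophages_1 held 192 and 153 CPM of Irf8, between the i4F mice, and the whole cDC1 list summed to 890, 1038 and 1874 CPM in i4F against 2799 and 1949 CPM in WT Macrophages_2. Genes shared with monocytes ran the other way. Ms4a4c lay at 554, 590 and 88.7 CPM and Plac8 at 973, 508 and 275 CPM, and the integrin Itgam (CD11b) at 336, 471 and 83.9 CPM. i4F 3 was thus highest for the cDC1 genes and lowest for the monocyte genes, while Ccr7 differed less among the mice.

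**Figure D5:**
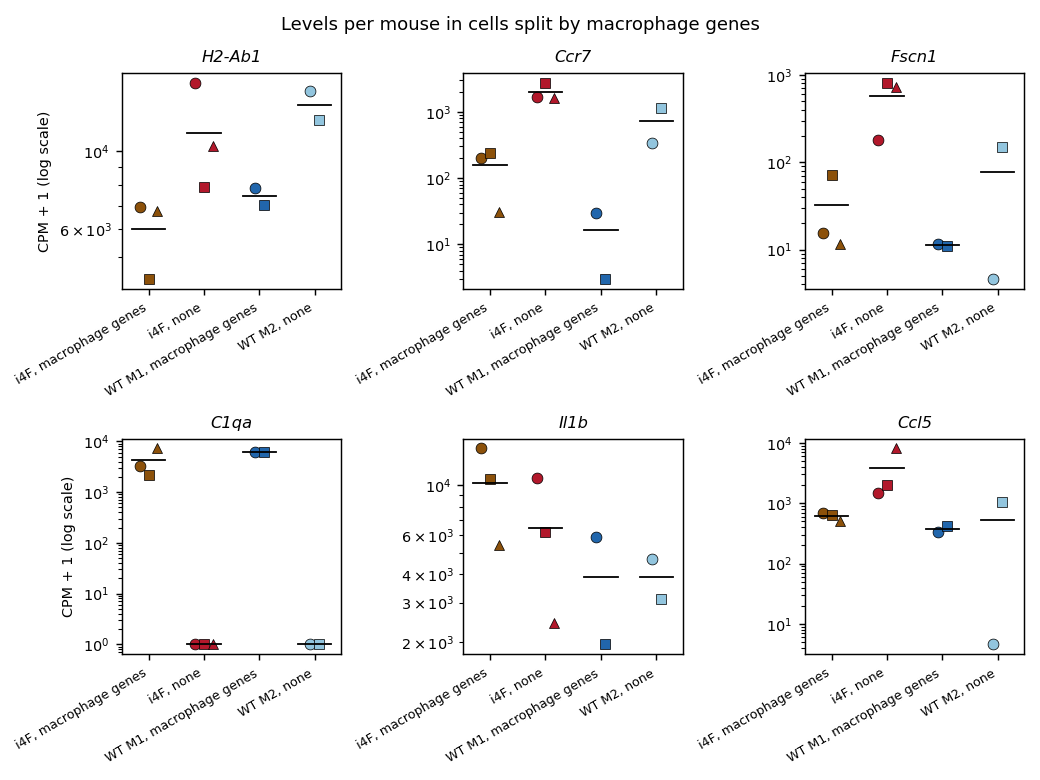
CPM + 1 on a log axis in cells of i4F Macrophages_3 with 2 or more, or with none, of 5 macrophage genes, beside WT Macrophages_1 cells with such genes (WT M1) and WT cells with none, all of which lie in Macrophages_2 (WT M2). Symbols are mice and bars are means; C1qa is one of the genes that define the split. Ccr7 and Fscn1 are high in the i4F cells without macrophage genes, from 1635 to 2724 CPM for Ccr7.

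WT mice held dendritic genes in another cluster, Macrophages_2 (59 and 96 cells), which was set beside the i4F cluster after its values had been seen. There Ccr7 lay at 400 and 930 CPM, H2-Oa at 200 and 209 CPM and Flt3 at 70.3 and 32.0 CPM, and C1qa at 143 and 2.13 CPM. Mature dendritic genes marked 10.2% and 13.04% of its thinned cells, cDC1 genes 20.3% and 7.61%, cDC2 genes 15.3% and 17.4%, and macrophage genes 1.69% and 2.17%. Both cDC shares lay above those of every i4F mouse, with mean differences (i4F minus WT) of -11.5 and -12.8 percentage points, while mature dendritic genes were at 7.28 (exact permutation p = 0.2 for each, the smallest possible). With this reference 3 of 5119 genes (0.0586%) passed an edgeR adjusted p of 0.05 and 722 an unadjusted p of 0.05 (14.1%); DESeq2 called 88. The edgeR count was 0 without i4F 2, 2 without i4F 1, 5 without WT 1, 14 without WT 2, 46 without i4F 3 and 53 with a replicate block. The 3 genes, all higher in i4F, were Ctsd, a lysosomal protease, Reg3g, a secreted lectin, and Ltc4s, an enzyme of leukotriene synthesis. With both WT clusters together, 1 gene of 6202 passed and 825 had an unadjusted p under 0.05. The calls described above thus rested on WT Macrophages_1 as the reference. Against WT Macrophages_2 the median log2 fold change was -0.54 for the dendritic core and -0.61 for class II genes. For mature dendritic genes it was 0.64 and for macrophage genes 2.19, with no calls in these lists. Summed core genes lay at 557, 586 and 541 CPM in i4F against 1077 and 766 CPM. Class II genes summed to 71369, 44380 and 62969 CPM against 85589 and 85288 CPM.

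Cells sorted by their macrophage genes, without thinning, were also compared. Depth was not matched. Cells with none had medians of 2079, 1888 and 3515 UMIs in i4F and 5500 and 4714 in WT. A cell with fewer UMIs meets none more easily, and the part of depth was not tested. Between cells with 2 or more macrophage genes, 0 of 3727 genes passed in edgeR (601, or 16.1%, at an unadjusted p under 0.05, and 60 by DESeq2). Between cells with none, 0 of 3585 passed (329, or 9.18%, unadjusted, and 28 by DESeq2), and without i4F 3 the counts were 184 and 26. In cells without macrophage genes Ccr7 lay at 1695, 2724 and 1635 CPM in i4F and at 332 and 1135 CPM in WT. Fscn1 lay at 177, 805 and 731 CPM against 3.61 and 150 CPM, and neither gene overlapped. The share of all genes without overlap was not counted for these cells. Ifitm1 lay at 6177, 3944 and 505 CPM against 57.8 and 51.0 CPM. Flt3 overlapped at 88.5, 154 and 50.1 CPM against 75.9 and 39.6 CPM. H2-Oa did too, at 290, 166 and 196 CPM against 184 and 210 CPM.

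The cluster made up 2.19%, 1.06% and 3.70% of all cells in i4F 1, 2 and 3 and WT Macrophages_1 1.04% and 6.61% in WT 1 and 2. Means of 2.32% ± 1.33 (n = 3) and 3.82% ± 3.94 (n = 2) overlapped (exact two-sided permutation p = 0.8). Among immune cells the shares were 5.16%, 2.19% and 9.96% against 20.2% and 56.0%, with no overlap (exact permutation p = 0.2, adjusted over 3 shares 0.6). The mean difference was -32.3 percentage points, and -52.0 with both WT macrophage clusters together. Macrophage genes marked 90.9% and 99.2% of WT Macrophages_1 but 31.6%, 28.2% and 46.2% of the i4F cluster. These shares therefore do not follow the same kind of cell. Among the macrophage clusters WT Macrophages_1 made up 43.3% and 81.3%, a range that includes the 58.75% of i4F 3 (exact permutation p = 0.4). Over all the macrophage clusters and without thinning, cells with mature dendritic genes were 0.550%, 0.329% and 0.998% of all i4F cells (54, 27 and 76 cells, of which 48, 23 and 73 lay in Macrophages_3) and 0.277% and 0.364% of WT cells. The lowest i4F mouse lay below the higher WT mouse (exact permutation p = 0.4). After thinning, over cells of at least 1000 UMIs and added once the values above were known, they were 0.377%, 0.270% and 1.15% in i4F (30, 17 and 53 cells) and 0.109% and 0.246% in WT (3 and 12 cells), with no overlap but i4F 2 close to WT 2 (exact permutation p = 0.2).

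After caerulein no cluster of this name was annotated. The authors' caerulein cluster named B_lymphocytes (994 and 398 cells) held cells with such genes: with no thinning, cDC1 genes marked 11.4% and 8.29% of it, mature dendritic genes 5.23% and 1.01%, and macrophage genes 24.8% and 22.4%. Unthinned WT and i4F lymphocytes gave 0.281% to 3.36% for mature dendritic genes, so that the 1.01% lies at background, and 0.140% to 1.68% for cDC1 genes. As it was gathered under another name, it was compared no further.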

How the data were processed

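Whole-pancreas cells were profiled with 10x 3′ chemistry, 1 library per mouse. The deposited values are whole-number UMI counts per gene and cell, made by the authors with Cell Ranger on GRCm38 (mm10). The authors' methods name SoupX for ambient RNA, but not whether the deposited counts precede it. The deposited annotation gives the cluster of each cell, from Seurat run separately for each condition, and the mitochondrial percent, under which the authors kept cells below 5% and with at least 150 genes. No cell was removed here.

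Counts were summed per mouse and cluster and tested with edgeR 4.0.16 (TMM, filterByExpr, quasi-likelihood, two-sided, Benjamini-Hochberg) in R 4.3.3. DESeq2 1.42.0 was an alternative. Nothing states that mice were paired. Library names begin with AL for WT 1 and the i4F mice, and with AM for WT 2 and the caerulein mice. What the letters stand for is not stated. WT 2 held 418 of the 463 cells of WT Macrophages_1. Named genes were those of the lists, up to 15 per direction by fold change among called genes whose groups do not overlap (mean of at least 5 log2 CPM), and up to 15 per direction by the smallest within-mouse difference from i4F Macrophages_1. Some listed genes are counted but not reported by name here. The cluster, its markers and the lists were chosen with earlier results of these data known. Shares were compared with exact permutation tests over mice. Simulated counts for 6061 genes gave back 32% of 2-fold and 92% of 4-fold changes, with 2 false calls. The simulation gave all genes the same spread between mice and changed only genes with enough UMIs. These shares therefore need not hold for the data themselves. Scrublet (scanpy 1.11.5) served as an alternative only. It marked 2 of 4327 cells in WT 1 and 0 of 7614 in i4F 3, so it did not work there, and removing the highest scores was added.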

Additional observations from a re-analysis of the deposited data

How the results depend on the processing

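Of 288 called genes, 251 were shared with the 337 that DESeq2 called. The count was 891 with no filter on low counts and 531 with a replicate block. Same-numbered mice did not deviate together (correlations of -0.02 and -0.15), so the numbers were not taken as pairs. The correlation of WT 2 with i4F 3 was 0.13. It was 0.20 with WT Macrophages_2 as the reference, and 0.22 and 0.15 in cells with and without macrophage genes. Leaving out 1 mouse gave 0 to 534 calls. With both WT macrophage clusters as the reference 1 gene was called. In alternatives added after seeing the data it was 3 with WT Macrophages_2, 0 in cells with 2 or more macrophage genes, 0 in cells with none, and 797 for WT 1 against i4F 1 and 2. Of 34 called genes among 47 followed by name, 34 no longer passed without i4F 2, 13 without i4F 1 and 34 with both WT clusters. None changed sign in these fits. Without i4F 2 the log2 fold changes of Ccr7, H2-Oa and Adgre1 were 6.39, 5.32 and -2.85. With both WT clusters they were 1.90, 0.40 and -2.18. Against WT Macrophages_2 direction did change, with a median of 2.19 for the macrophage list. The cause of these changes was not tested.

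The difference in the share of all cells (i4F minus WT, in percentage points) was -1.51 and ran from -4.29 without WT 1 to 1.28 without WT 2. That in cells with cDC2 genes was -3.21 and ran from -7.69 to 1.27 without the same mice. Against WT Macrophages_2 the difference for cDC1 genes turned to -11.5, that for cDC2 genes was -12.8 and that for macrophage genes to 33.4. With 2 WT mice, no share can reach a p under 0.2.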
